A study of Mus musculus with 10 samples.

Results

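The miR-200 family is a group of 5 mouse microRNA (miRNA) hairpins: miR-200b, miR-200a and miR-429 in one genomic cluster, and miR-200c and miR-141 in another. Each hairpin can give a mature miRNA from its 5p arm and one from its 3p arm, so the family has 10 members, chosen by name from the 1892 miRNAs on the array. All 10 were on the array, with 2 spots each. They were measured on 10 one-colour arrays, 5 of samples titled T-C cell and 5 of samples titled control cell. The T-C cell samples have the source Col-/-, and the control cell samples have the source Control Col. All 10 samples are mouse, male, described as sle liver, and carry the same protocol text, a liver cell culture with 0.5 mg TN-CF for 100000 T-C cells in a dish over 24 hours, and a control. What Col, TN-CF, T-C and sle stand for is not given in the labels, and the series' design text writes TB-CF. Source and treatment therefore cannot be told apart between the groups. Whether the 5 samples of a group are separate animals or dishes is not in the labels, so the p-values reflect spread from sample to sample only, part of which can be technical.

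MiRNAs are short RNAs that pair through their seed, bases 2 to 8 from the 5′ end, with messenger RNAs and lower their translation and stability. The miR-200 family is abundant in epithelial cells and low in mesenchymal cells. It represses Zeb1 and Zeb2, transcription factors that repress E-cadherin, and these factors in turn repress both miR-200 clusters. In liver the family is known from bile duct epithelium more than from hepatocytes. The arrays measure miRNAs and hold no value for Zeb1, Zeb2 or E-cadherin.

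The sequences show how close the members are, which bears on how far the array can tell them apart. Those of the 3p arms follow, 5′ to 3′, with the seed in capitals. The prefix mmu, for mouse, is left out of names elsewhere. The sequences are the target sequences of the array files and were identical to RefSeq (GRCm38.p6) for all 10 members.
mmu-miR-200b-3p: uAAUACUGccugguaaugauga
mmu-miR-200c-3p: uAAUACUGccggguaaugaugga
mmu-miR-429-3p: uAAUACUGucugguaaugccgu
mmu-miR-200a-3p: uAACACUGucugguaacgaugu
mmu-miR-141-3p: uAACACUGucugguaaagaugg

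These 3p arms form 2 seed groups that cut across the clusters. The seed AAUACUG was held by miR-200b-3p, miR-200c-3p and miR-429-3p, and AACACUG by miR-200a-3p and miR-141-3p. No other miRNA of the array had either seed. Counted from the 5′ end of the first-named miRNA, miR-200b-3p and miR-200a-3p differ within the seed by U4C alone. Within a seed group, miR-200a-3p and miR-141-3p differ by C17A and U22G. MiR-200b-3p and miR-200c-3p differ by U11G and A22G over the 22 bases compared, and miR-200c-3p is longer, with 23 bases. Members this close may share signal on a hybridization array, which was not tested.

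The 5p arms, generally the less abundant strand of these hairpins, are shown with their seeds in capitals because they set the members that were close to background.
mmu-miR-200b-5p: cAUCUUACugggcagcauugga
mmu-miR-200a-5p: cAUCUUACcggacagugcugga
mmu-miR-429-5p: gUCUUACCagacaugguuaga
mmu-miR-200c-5p: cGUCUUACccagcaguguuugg
mmu-miR-141-5p: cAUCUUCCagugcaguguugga

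MiR-200b-5p and miR-200a-5p share the seed AUCUUAC, and the other 5p arms have seeds that differ from it and from each other. On GRCm38 the hairpins Mir429, Mir200a and Mir200b lie within 1846 bases of chromosome 4 (156053905 to 156055750, minus strand), in an intron of the protein-coding gene Ttll10 on the same strand in GENCODE M21. Mir429 also overlaps an exon of the non-coding gene Gm13648, while Mir200a and Mir200b lie in an intron of it. Mir141 and Mir200c lie within 477 bases of chromosome 6 (124717914 to 124718390, minus strand), in an intron of the non-coding gene Gm15884, and Mir141 also in an exon of Gm29008. The nearest protein-coding gene to Mir141 is Phb2, 963 bases away.

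A miRNA counted as detected on an array where its 2 spots averaged above the blank spots' mean plus 3 SD. These limits ranged from 64.0 to 474 intensity units, with from 189 to 1314 miRNAs detected per array. T-C cell replicate 1 stood apart on the first principal component of the tested miRNAs, at −15.8, against −5.10 to −1.34 for the other T-C cell arrays and 1.63 to 8.05 for the control cell arrays. MiR-122-5p, the defining miRNA of hepatocytes, was detected on 1 of 10 arrays, with raw intensities from 57.8 to 193, so the labelled liver origin is not borne out by this marker. By contrast, miR-192-5p and miR-194-5p, abundant in both liver and intestine, ranked 10 and 8 of 1892 by mean level. MiR-145a-5p and miR-143-3p, known from smooth muscle and fibroblasts, ranked 3 and 4. The cells thus gave strong signal for epithelial and mesenchymal miRNAs together. In such bulk RNA, fewer cells of a type and less RNA per cell cannot be told apart.

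The 3p arms of the miR-200 family were among the bright miRNAs of these samples, and each of the 5 was detected on 10 of 10 arrays in both groups. MiR-200b-3p ranked 13, miR-429-3p 19, miR-200a-3p 20, miR-200c-3p 34 and miR-141-3p 90 of 1892 by mean normalized level. None of the 7 members that could be tested was called different between the groups. Of all tested miRNAs 7.77% were called, and with 7 members 0 calls are not set apart from that share. The 95% intervals of the 7 differences lay between −0.76 and 0.60 on the log2 scale. In this fit a 2-fold difference lay outside each interval. That does not hold for each way of processing. With median centring the interval of miR-200a-3p ran from −1.39 to 0.46. Those of miR-429-3p, miR-141-3p and miR-200b-3p also reached beyond 2-fold lower, at −1.26, −1.20 and −1.14. With blanks subtracted, the interval of miR-200c-3p reached 1.01. Those of the dim members miR-200b-5p and miR-200a-5p then ran from −1.26 to 1.65 and from −1.16 to 1.76.

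Raw intensities, the linear scanner brightness averaged over the 2 spots, show the size of the signal before any scaling. MiR-200b-3p, the brightest member, had 7201, 9234, 9969, 10185 and 7224 on T-C cell replicates 1 to 5 and 10749, 5794, 9328, 12729 and 10179 on control cell replicates 1 to 5. Control cell replicate 2 was the lowest of all 10 arrays and control cell replicate 4 the highest, so the T-C cell values lay inside the control cell range. MiR-200a-3p, its cluster partner with the other seed, had 4805, 6465, 5890, 8399 and 3648 on T-C cell and 8174, 5046, 8628, 7620 and 7160 on control cell arrays. Control cell replicate 2 was the lowest of its group, and T-C cell replicate 4 alone reached the level of the other control cell arrays.

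MiR-429-3p, the third hairpin of that cluster, had 4742, 7119, 5343, 7531 and 5306 on T-C cell and 8559, 4738, 7235, 7777 and 6912 on control cell arrays. The groups overlapped, with control cell replicate 2 again the lowest. MiR-200c-3p, from the chromosome 6 cluster, had 4490, 3846, 5399, 5192 and 3021 on T-C cell and 4135, 2325, 4723, 4454 and 4249 on control cell arrays. T-C cell replicates 3 and 4 were the highest of the 10 and control cell replicate 2 the lowest. MiR-141-3p, its cluster partner, was the dimmest 3p arm, with 1668, 1307, 1754, 2649 and 835 on T-C cell and 2050, 1527, 2280, 1324 and 1462 on control cell arrays. Both its highest and its lowest value were on T-C cell arrays.

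The 5p arms were far dimmer. MiR-200b-5p ranged from 259 to 426 and miR-200a-5p from 179 to 336, and each was detected on 8 of 10 arrays, 4 in each group. Both missed the limit on T-C cell replicate 3 and control cell replicate 2, whose limits of 474 and 319 were the highest of the arrays. MiR-141-5p (85.9 to 283) was detected on 2 arrays, miR-200c-5p (67.0 to 249) on 1 array, and miR-429-5p (58.8 to 235) on none. These 3 members were not tested. Of 10 members, 7 passed the filter of detection on at least 5 of 10 arrays, and that filter did not use the groups.

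**Figure D1:**
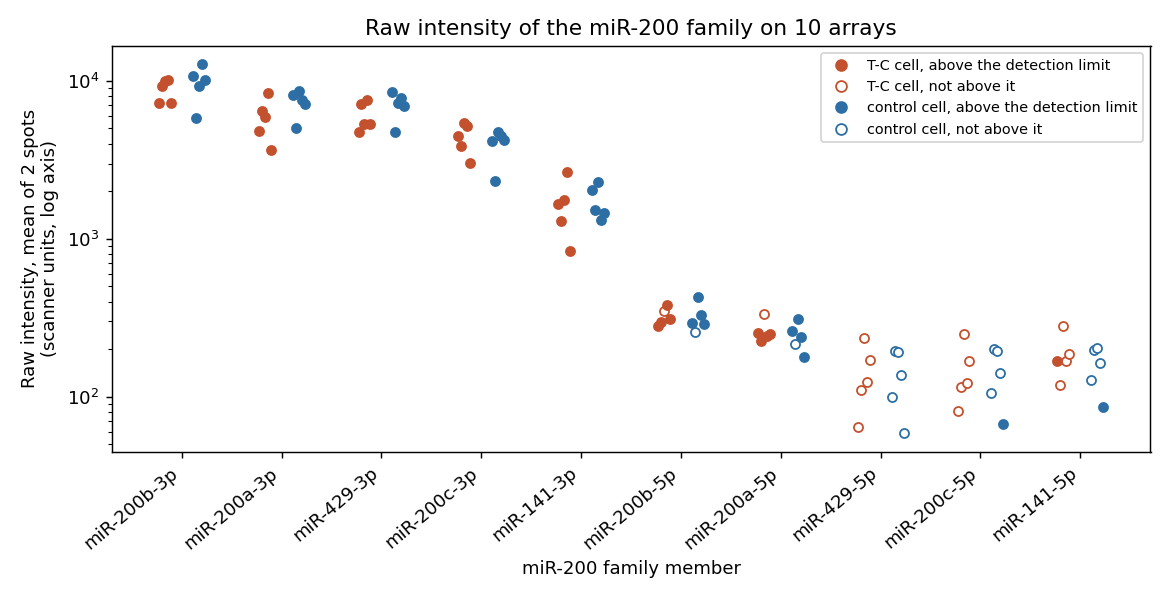
Raw intensity (mean of 2 spots, log axis) of the 10 miR-200 family members on 5 T-C cell and 5 control cell arrays, with filled points above the detection limit of their own array and open points not above it. The 3p arms lie between 835 and 12729 and all are filled, while the 5p arms lie between 58.8 and 426.

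Within each hairpin the 3p probe was brighter than the 5p probe on 10 of 10 arrays. The raw ratio of 3p to 5p had a median of 27.8 for miR-200b (21.9 to 38.4), 28.2 for miR-200a (14.6 to 40.1) and 10.4 for miR-141. For miR-429 and miR-200c the medians were 58.7 and 32.5. As the 5p arms of miR-429, miR-200c and miR-141 were at or near background, their ratios mostly describe how bright background was on an array. Brightness also depends on the probe, so a ratio of probes is not a ratio of molecules.

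For the comparison of the groups, intensities were converted to log2(intensity + 50), normalized between arrays and tested with limma across 476 miRNAs. The control cell mean was subtracted from the T-C cell mean, and a call needs a Benjamini-Hochberg adjusted p under 0.05. Of the 476 miRNAs, 37 were called, 7 higher (1.47%) and 30 lower (6.3%). Quantile normalization gave 14 higher against 33 lower, and median centring 1 against 13. Of the 7 tested miR-200 members, 0 were called and 0 had an unadjusted limma p under 0.05, where 18.3% of all tested miRNAs had one. An exact two-sided permutation test of each member over the 10 arrays also gave 0 under 0.05 before adjustment. The levels overlapped between the groups for each of the 7, against 3.78% of tested miRNAs that did not overlap. With 7 members, none of these counts is set apart from its share over all tested miRNAs.

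MiR-200a-3p had the largest difference of the family. Its normalized log2 levels were 12.06, 12.61, 12.69, 12.61 and 12.08 on the T-C cell arrays and 12.82, 12.43, 13.05, 12.91 and 12.66 on the control cell arrays. T-C cell replicates 1 and 5 lay below all control cell arrays, and 5 of 5 T-C cell arrays lay below the control cell median of 12.82. The means were 12.41 ± 0.31 and 12.77 ± 0.24 (SD, n = 5 each). The difference was −0.37 (95% interval −0.76 to 0.03, limma adjusted p = 0.311, unadjusted 0.0646), a 1.29-fold lower level that may be as much as 1.69-fold lower. The exact permutation p was 0.0794, and the direction held under each of the alternatives tried. Without T-C cell replicate 1 the difference was −0.24.

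MiR-429-3p, from the same cluster, stood at 12.04, 12.75, 12.55, 12.45 and 12.61 on T-C cell and 12.89, 12.34, 12.80, 12.94 and 12.61 on control cell arrays. T-C cell replicate 1 was the lowest of the 10, and 5 of 5 T-C cell arrays lay below the control cell median. The difference was −0.23 (95% interval −0.60 to 0.14, limma adjusted p = 0.603), and −0.086 when T-C cell replicate 1 was left out. MiR-200b-3p stood at 12.71, 13.06, 13.40, 12.86 and 13.07 against 13.18, 12.64, 13.16, 13.62 and 13.11, with the T-C cell values inside the control cell range. Its difference was −0.12 (95% interval −0.54 to 0.30, limma adjusted p = 0.813). With 1 array left out it ran from −0.25 (control cell replicate 2) to −0.000031 (T-C cell replicate 1). Without control cell replicate 4 it was −0.0098.

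From the chromosome 6 cluster, miR-200c-3p was the 1 tested member with a positive difference. Its levels were 11.83, 11.94, 12.61, 11.92 and 11.76 on T-C cell and 11.86, 11.26, 12.19, 12.16 and 11.95 on control cell arrays. T-C cell replicate 3 was the highest and control cell replicate 2 the lowest, and the other 8 arrays lay from 11.76 to 12.19. The difference was 0.13 (95% interval −0.34 to 0.60, limma adjusted p = 0.822), and it turned to −0.039 when T-C cell replicate 3 was left out and to −0.030 when control cell replicate 2 was. MiR-141-3p stood at 10.23, 10.55, 11.10, 11.02 and 9.92 on T-C cell and 10.97, 10.70, 11.15, 10.50 and 10.57 on control cell arrays. Its T-C cell arrays spread the most of the tested members (SD 0.51, against 0.27 on control cell arrays), and its difference was −0.21 (95% interval −0.73 to 0.31, limma adjusted p = 0.731). Leaving out T-C cell replicate 3 gave −0.36, and leaving out T-C cell replicate 5 gave −0.054.

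The tested 5p arms gave differences of −0.14 for miR-200b-5p (95% interval −0.50 to 0.22, limma adjusted p = 0.731) and −0.07 for miR-200a-5p (95% interval −0.35 to 0.21, limma adjusted p = 0.828). Their signs turned without normalization, and that of miR-200a-5p also with quantile normalization, where the 3p arms kept theirs under each scaling tried. Over the 7 tested members the median difference was −0.14, with 6 of 7 below 0. Of all 476 tested miRNAs, 47.1% were below 0 and the median was 0.02. Without normalization the median of all tested miRNAs was 0.14 and 4 of 7 members were below 0.

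**Figure D2:**
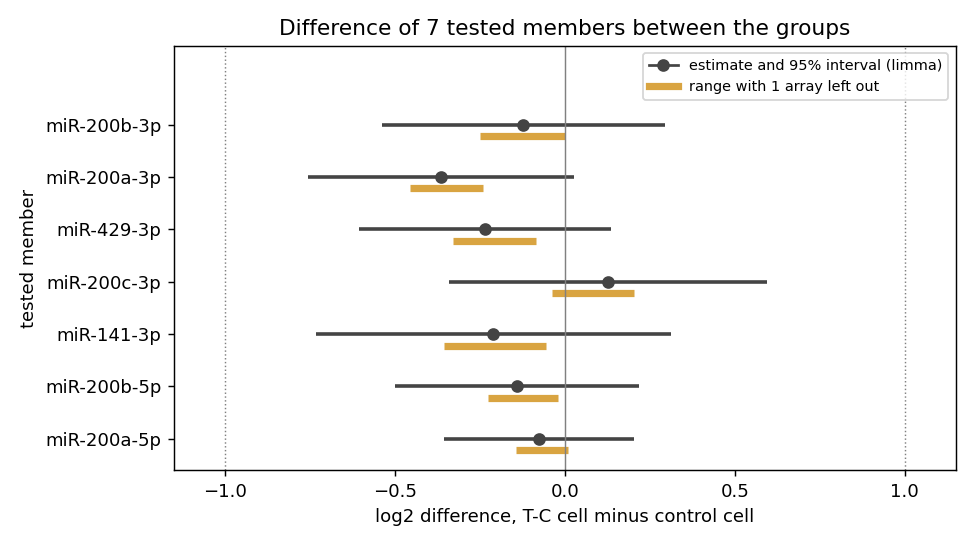
Log2 difference (T-C cell minus control cell) of the 7 tested members, with the limma estimate as a point, its 95% interval as a dark line and the range over fits that leave out 1 array as a light bar; dotted lines mark a 2-fold difference. Each 95% interval includes 0, and miR-200a-3p at −0.37 lies farthest from it.

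Averaged over the 3p arms of a cluster, the chromosome 4 cluster (miR-200b, miR-200a and miR-429) had mean log2 levels of 12.27, 12.81, 12.88, 12.64 and 12.58 on T-C cell and 12.96, 12.47, 13.01, 13.15 and 12.79 on control cell arrays. T-C cell replicate 1 was the lowest, and the other T-C cell arrays lay inside the control cell range. The group means differed by −0.24, close to the SD within a group (0.24 in T-C cell, 0.26 in control cell, n = 5 each), and by −0.11 when T-C cell replicate 1 was left out. The chromosome 6 cluster (miR-200c and miR-141) had 11.03, 11.24, 11.86, 11.47 and 10.84 against 11.41, 10.98, 11.67, 11.33 and 11.26, a difference of −0.04 with SDs of 0.40 and 0.25. Both the highest and the lowest value of this cluster were T-C cell arrays, and its difference ran from −0.20 (T-C cell replicate 3 left out) to 0.072 (T-C cell replicate 5 left out). No test was made of these averages, since their members were chosen by name with earlier results known.

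Subtracting the chromosome 6 from the chromosome 4 cluster on each array removes a shift that an array's members share equally on the log2 scale. A shift that depends on brightness can remain, as the clusters differ in level. The subtraction left 1.35 ± 0.30 on T-C cell and 1.55 ± 0.18 on control cell arrays (SD, n = 5 each), a difference of −0.20 with overlapping groups. By seed, the group of miR-200b, miR-200c and miR-429 differed by −0.08 (SDs 0.24 and 0.31), and the group of miR-200a and miR-141 by −0.29 (SDs 0.40 and 0.22). With 1 array left out the first ran from −0.20 (control cell replicate 2) to 0.040 (T-C cell replicate 1), and the second from −0.40 (T-C cell replicate 3) to −0.16 (T-C cell replicate 5). The first seed group minus the second was 1.02 ± 0.31 on T-C cell and 0.80 ± 0.27 on control cell arrays, which overlapped too. Neither split of the family, by position or by seed, thus separated the arrays of the 2 groups.

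**Figure D3:**
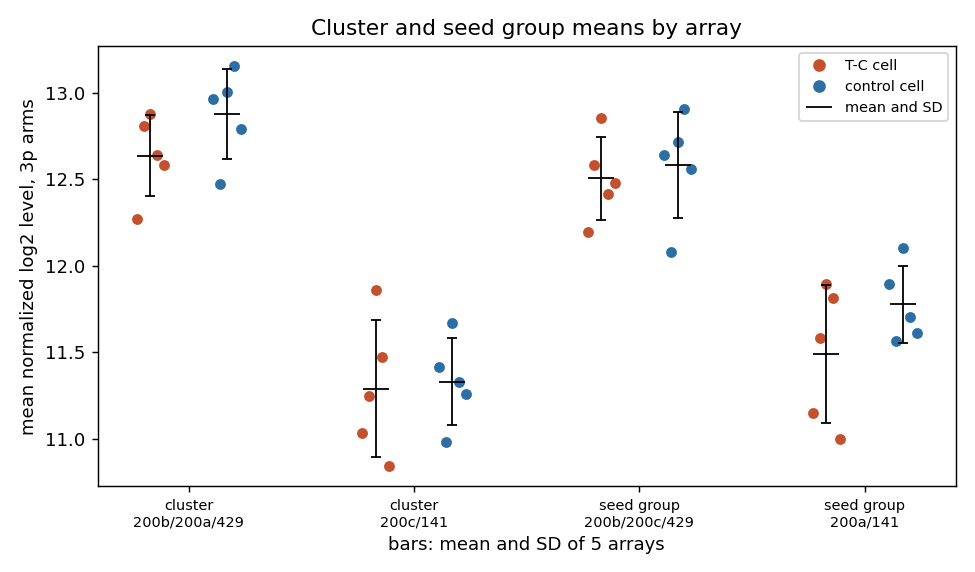
Mean normalized log2 level of the 3p arms of each genomic cluster and each seed group, 1 point per array, with the mean and SD of 5 arrays per group. T-C cell and control cell arrays overlap in all 4 sets, with differences from −0.29 to −0.04.

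Among themselves, the 3p arms kept much the same order of brightness on each array. MiR-200b-3p was above each of the other 4 on 10 of 10 arrays, and miR-141-3p below each of them. MiR-200a-3p and miR-429-3p were not ordered, with miR-200a-3p higher on 6 of 10 arrays and a difference from −0.54 to 0.25. MiR-429-3p was above miR-200c-3p on 9 of 10 arrays. These orders are of probe brightness and give no order of molecule numbers.

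Of the 10 pairs of 3p arms, 1 had within-array differences that did not overlap between the groups, miR-200a-3p minus miR-200c-3p. It was 0.23, 0.68, 0.08, 0.68 and 0.31 on T-C cell and 0.96, 1.17, 0.87, 0.75 and 0.71 on control cell arrays. The highest T-C cell value and the lowest control cell value were 0.026 apart, and the means differed by −0.49. These 2 miRNAs come from different clusters and have different seeds. Among all pairs of tested miRNAs 5.43% did not overlap in this way, and 4.47% of pairs at least as bright as miR-141-3p. As the 10 pairs share 5 members, 1 in 10 is not set apart from that background, and the pair, noticed in the values, was not tested. The groups overlapped for this pair with quantile normalization or with the brighter of the 2 spots.

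**Figure D4:**
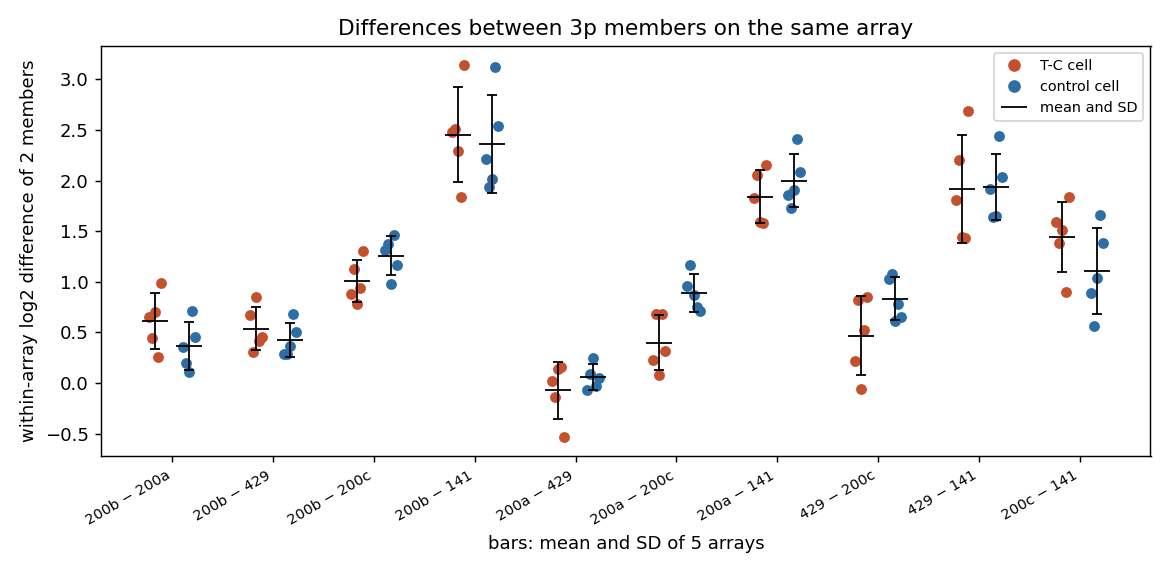
Log2 difference between 2 miR-200 3p arms on the same array for all 10 pairs, 1 point per array, with the mean and SD of 5 arrays per group. Only for 200a − 200c do the groups not overlap, with T-C cell arrays from 0.08 to 0.68 and control cell arrays from 0.71 to 1.17.

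The 2 spots of a member show how far a single reading can be trusted. For miR-429-3p the spots agreed within 0.14 on the log2 scale on each array, and for miR-200a-3p within 0.21, the first spot being the dimmer on 10 of 10 arrays. For miR-200b-3p and miR-200c-3p, whose spots lie 2 rows apart in both copies, the first spot was brighter on 9 of 10 arrays, by up to 0.50. The exception was control cell replicate 2, where the first spot was dimmer by 0.16 for miR-200b-3p and by 0.88 for miR-200c-3p (raw intensities 1634 and 3015). On the same array the first spots of miR-200b-5p and miR-200a-5p were dimmer by 0.74 and 0.53. The lowest normalized levels of miR-200b-3p, miR-200c-3p and miR-200a-5p among the 10 arrays, on that array, thus came with a reversed pair of spots. Of 11 other tested miRNAs with first spots in that corner, 7 had the brighter first spot on control cell replicate 2, and 8 to 11 on the other arrays.

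Other epithelial miRNAs were compared as a list chosen with earlier results known. Of its 7 members 5 were tested, 0 were called, and the median difference was −0.10, against 0.02 for all tested miRNAs. The log2 of the summed linear levels of the 5 lay from 11.98 to 12.38 on T-C cell and from 12.18 to 12.68 on control cell arrays. Such a sum is weighted to the brightest members. MiR-375-3p, known from endocrine and other epithelial cells, was the brightest of the list and had the lowest difference, −0.51 (limma adjusted p = 0.311), and miR-203-3p, a skin and squamous epithelium miRNA, had the highest, 0.14. MiR-205-5p, which also represses Zeb1 and Zeb2, stood at 8.65 ± 1.05 on T-C cell and 8.74 ± 0.41 on control cell arrays (SD, n = 5 each, limma adjusted p = 0.935). MiR-31-5p and miR-96-5p were detected on 2 and 4 arrays and not tested. Raw intensities of miR-31-5p ran from 78.5 to 2785. Its levels were 8.69 ± 1.52 on T-C cell and 7.81 ± 0.31 on control cell arrays (SD, n = 5 each).

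Markers of the other cell types in the RNA were counted in the same fit. Of 9 mesenchymal and smooth-muscle miRNAs 0 of 9 tested were called, with a median difference of 0.17, from miR-143-3p at −0.04 to miR-10b-5p at 0.70, and with miR-145a-5p, the brightest, at 0.08. The log2 of their summed linear levels lay from 15.41 to 16.08 on T-C cell and from 15.39 to 15.69 on control cell arrays. Of 6 tested leukocyte and erythroid miRNAs, the lymphocyte miRNA miR-150-5p rose by a log2 difference of 0.86 (SE 0.23, adjusted p = 0.0433 with limma), and 5 did not pass, the lowest being miR-223-3p at 0.29. The median difference of the 6 was 0.36, against 0.02 for all tested miRNAs. With 6 members, 1 call is not set apart from the 7.77% called among all tested miRNAs. The log2 of their summed linear levels lay from 12.15 to 12.45 on T-C cell and from 11.57 to 11.96 on control cell arrays, without overlap. For such sums no share over all miRNAs was computed, and the list was chosen with earlier results known. The lack of overlap is therefore not set against a background. MiR-150-5p is the brightest of this list, and its own levels overlapped between the groups. Of 5 tested hepatocyte miRNAs 0 were called, with a median of 0.10 and miR-148a-3p the lowest at −0.27, while miR-122-5p was near background. The highest was miR-192-5p at 0.47 (SE 0.53), with SDs of 0.18 on T-C cell and 1.40 on control cell arrays, and on control cell replicate 1 its spots read 167 and 15049. Besides, miR-194-5p, the brightest, stood at 0.10. The endothelial miRNA miR-126a-3p differed by −0.01. The part of these cell types in the miR-200 values was not tested.

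The miRNAs most like a member were those with the smallest root mean square distance between levels centred on their 10-array mean. For miR-200b-3p these were miR-26a-5p (0.17 on the log2 scale), miR-23a-3p (0.17) and miR-199a-3p (0.179), all closer than miR-429-3p (0.182), the closest of the family. MiR-141-3p was at 0.43 from miR-200b-3p, which put it in place 256 among the other tested miRNAs. For miR-200c-3p the closest were miR-185-5p (0.17), miR-199a-3p (0.19) and miR-107-3p (0.21), and its cluster partner miR-141-3p was at 0.39, in place 139. Among the 10 pairs of 3p arms, the within-array difference varied least over the 10 arrays for miR-200b-3p and miR-429-3p (SD 0.19). MiR-200a-3p and miR-429-3p followed (SD 0.22), also of the chromosome 4 cluster, and miR-200b-3p and miR-141-3p varied most (SD 0.45). Genomic position alone did not order all pairs. MiR-200b-3p and miR-200a-3p of that cluster had 0.27. This was above 2 pairs of different clusters, miR-200b-3p and miR-200c-3p (0.23) and miR-200a-3p and miR-141-3p (0.26). Each of these 2 pairs shares a seed and differs at 2 of the 22 bases compared. The spots of miR-200b-3p and miR-200c-3p also lie close together on the array in both copies. The part of sequence or spot location in these SDs was not tested. The chromosome 6 partners miR-200c-3p and miR-141-3p had 0.41.

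The miRNAs called lower in T-C cell arrays often hold the letters ACC, 28 of 30, against 96 of the 446 other tested miRNAs. Of the family, 0 of 5 mature 3p arms and 3 of 5 mature 5p arms hold ACC, the latter being miR-200a-5p, miR-429-5p and miR-200c-5p. Of these, miR-200a-5p alone was tested, and it was not called.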

How the data were processed

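The authors deposited 1 file per array. Per the file headers it holds the median intensity of each of 3968 spots, a linear brightness not scaled between arrays, and its deviation within the spot. Per the labels' protocols, RNA was poly(A)-tailed, tagged and stained with Cy3 by a service. For the scanner, image software, background treatment and miRBase release, no source used here gives details.

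The 2 spots of a miRNA were averaged as log2(intensity + 50). Arrays were normalized by cyclic loess and compared with limma 3.58.1 in R 4.3.3 (lmFit and eBayes, trend on, two-sided). P-values were adjusted by Benjamini-Hochberg over the 476 miRNAs detected on at least 5 of 10 arrays, where the limit was the mean plus 3 SD of 16 blank spots. The offset understates differences of dim miRNAs, and the number of arrays limits precision. Groups and replicate numbers come from the titles. No arrays were duplicates (highest correlation 0.979). Positions are from RefSeq (GRCm38.p6) and GENCODE M21 on GRCm38 (Python 3.11.15).

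The members and lists were chosen with earlier results of these data known. The named miRNAs are all 10 members, the 3 miRNAs most like miR-200b-3p and miR-200c-3p, and of each list the largest and smallest difference, the brightest member and any that passed. MiR-205-5p, the untested members and the ACC letters were added after values were seen. In simulated arrays of 476 miRNAs, 50 were raised and 50 others lowered 2-fold. Limma called 80.4% of the raised, 81.8% of the lowered and 0.851% of the unchanged ones. The simulated noise was normal and independent between miRNAs, and more miRNAs were changed than the 37 called here. These shares may therefore not hold for the arrays themselves. Alternatives were the offset, blank subtraction, scaling, filter, choice of spot, array weights, trend, replicate block and leaving out each array.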

Additional observations from a re-analysis of the deposited data

Results flagged for a closer look

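Among the levels of the 10 members, the set means and the pair differences, examined in both groups of 5 arrays, 3 values stood far from the other 4 arrays of their group by Dixon's criterion, which chance meets in about 1 of 20 groups. There were 50 such groups. MiR-200c-3p was at 12.61 on T-C cell replicate 3, with the next array at 11.94 and the lowest at 11.76. MiR-200b-5p was at 8.26 on control cell replicate 2, with the next array at 8.68. MiR-141-5p, not tested, was at 8.11 on T-C cell replicate 1, with the next array at 7.76, where its raw intensity of 169 was above the limit of 133.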

How the results depend on the processing

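No miR-200 member was called in any of the 24 alternatives that refit all miRNAs, with 0 or 1 member at an unadjusted p under 0.05. The permutation test, whose smallest p is 0.00794, called 0 of all 476 miRNAs after adjustment and so says nothing about the members' calls. MiR-200a-3p, miR-429-3p, miR-200b-3p and miR-141-3p kept a negative difference in each (25 alternatives per member). With blanks subtracted to a floor of 1, miR-200b-5p was 0.20 and miR-200a-5p 0.30, and their mean 0.25. Without normalization they were 0.016 and 0.095, and miR-200a-5p was 0.0013 with quantile normalization and −0.14 to 0.0087 with 1 array left out. MiR-200c-3p was −0.039 to 0.20 with 1 array left out, and −0.030 when that was control cell replicate 2. The count of 37 called miRNAs was 3 with blanks subtracted, 14 with median centring, 1 with all miRNAs tested, 18 with detection on all 10 arrays, and from 1 to 44 with 1 array left out (69 to 102 at an unadjusted p under 0.05). Added after seeing the data, it was 1 when T-C cell replicate 1 and control cell replicate 2 were both left out. The count of pairs without overlap was 0 with quantile normalization or the brighter spot, and 1 with any 1 array left out, which makes overlap less likely. With the replicate number as a block, 22 miRNAs were called and 0 members. The numbers share no stated origin. After each miRNA's group mean was subtracted, same-numbered arrays of the 2 groups correlated from −0.20 to 0.26. The causes of these shifts were not tested.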
